A study of Mus musculus with 4 samples.

Results

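The genes of epithelial cell-cell junctions were examined in mouse mammary tumour cells: claudins, other tight junction genes, desmosome genes, connexins and Epcam. They were taken by gene symbol, and 69 of the 23361 genes in the deposited table matched. Of these, 25 were claudins, 4 other membrane proteins of tight junctions, 6 tight junction plaque or polarity proteins, 9 desmosomal cadherins, 8 desmosomal plaque proteins and 16 connexins, with Epcam as the remaining gene. RNA was sequenced in 4 libraries. A pair was labelled High Arid1a: it came from AB-C1 and AB-C2, clones given Arid1a by lentiviral transduction, with 1 library per clone. The other pair was labelled Low Arid1a and came from the parental line in duplicate. All 4 libraries came from 23116 MT mammary tumour cells of the Chaos3 mouse (strain C3HeB/FeJ), a mouse with a mutant Mcm4 helicase subunit, so the libraries labelled Low carry that background too. No library from cells with an empty vector is among the 4, and each clone stands for itself alone.

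Tight junctions seal the space between epithelial cells near their apical side. Claudins set which ions pass, occludin and the other MARVEL proteins join them in the membrane, and the zonula occludens proteins tie them to actin. Desmosomes are spot welds in which cadherins (desmogleins and desmocollins) bind, through plakoglobin, plakophilins and desmoplakin, to keratin filaments. Connexins form gap junctions, through which neighbouring cells exchange ions and small molecules. In the mammary gland the luminal cells are joined by all of these, and a group of breast tumours is named for low claudin expression.

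The libraries labelled High held 16523077 and 24307251 fragments, and those labelled Low 13889858 and 28110812. Arid1a itself was not higher under its High label: it was at 49.9 and 58.4 CPM (fragments relative to the library's total, with TMM scaling between libraries) in the libraries labelled High, against 82.4 and 94.4 CPM in those labelled Low. Its log2 fold change was -0.71 ± 0.23 (SE, edgeR adjusted p = 0.165). Whether the vector's transcript was counted as Arid1a is not given in the sources used here, so directions below are those of the labels. Of the keratins of mammary epithelium, luminal Krt8 was at 225 and 881 CPM in the libraries labelled High and at 649 and 444 CPM in those labelled Low, which overlapped. Basal Krt14 was at 1274 and 2653 CPM in the libraries labelled High, above the 975 and 616 CPM in those labelled Low. Basal Krt5 and Krt17 were nearly absent, at no more than 1.02 and 1.69 CPM in any library. The 14 epithelial markers summed to 2600 and 6439 CPM in the libraries labelled High, against 2892 and 2014 CPM in those labelled Low. The 10 fibroblast and pericyte markers summed to 1228 and 474.5 CPM in the libraries labelled High and to 6837 and 6202 CPM in those labelled Low. Of these 10, Lum was at 0 in every library. Dcn ran against the sum, at 195 and 19.7 CPM in the libraries labelled High and 4.20 and 5.46 CPM in those labelled Low. Pdgfra did not follow the sum either, at 235 and 26.6 CPM labelled High and 79.5 and 97.5 CPM labelled Low, which overlapped. The 8 endothelial markers summed to between 1.05 and 1.51 CPM in the libraries labelled High and between 0.884 and 1.25 CPM in those labelled Low, and Emcn was at 0. The 8 leukocyte markers summed to 22.2 and 28.3 CPM in the libraries labelled High, against 9.65 and 9.87 CPM in those labelled Low. Most of that was Csf1r (20.8 and 27.5 CPM labelled High, 8.69 and 8.69 CPM labelled Low), while Cd3e, Ms4a1 and Emr1 were among the 4 at 0. The part of these markers in the results below was not tested, and in bulk RNA fewer cells of a type cannot be told apart from less RNA per cell.

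Most of the junction genes that could be tested lay higher in the libraries labelled High, but only Gjb2, encoding connexin 26, and Ppl, encoding the plakin periplakin, rose past the threshold. Of the 69 genes, 38 passed the filter on low counts, 20 had fragments but did not pass it and 11 had none in any library. Among the 38, edgeR's quasi-likelihood test with Benjamini-Hochberg adjustment over 12977 genes called 2 higher and 0 lower. Over all tested genes, 1.14% were called higher and 1.33% lower. At an unadjusted p under 0.05, 21 junction genes were higher and 2 lower, against 9.93% and 8.18% of all tested genes. The libraries labelled High both lay above both labelled Low for 23 of the 38 and both below for 8, while 7 overlapped. Over all tested genes, the groups did not overlap with the libraries labelled High above in 25.9% and below in 25.2%. The median log2 fold change was 1.02 for the 38 genes and 0.03 for all tested genes. Cldn6, Tjp3 and Gja4 passed the filter through a single group only, so counts over the 38 are a description and not support for a direction.

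How many genes passed depended on the tool and on the libraries. DESeq2 called 11 higher and 0 lower of the 40 it tested (4.73% of all genes higher), and limma-voom 2 higher and 0 lower of 38. Without library 1 labelled High, edgeR called 25 of 40 higher and 0 lower, against 8.77% of all genes higher, and the median log2 fold change was 1.39. Without library 2 labelled High, it called 11 of 39 higher (10.6% of all genes) and 2 lower (8.09%), with a median of 0.38. Without either library labelled Low, edgeR called no gene of the whole table. The median log2 fold change of the junction genes was then 1.16 without library 1 labelled Low and 0.93 without library 2.

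**Figure D1:**
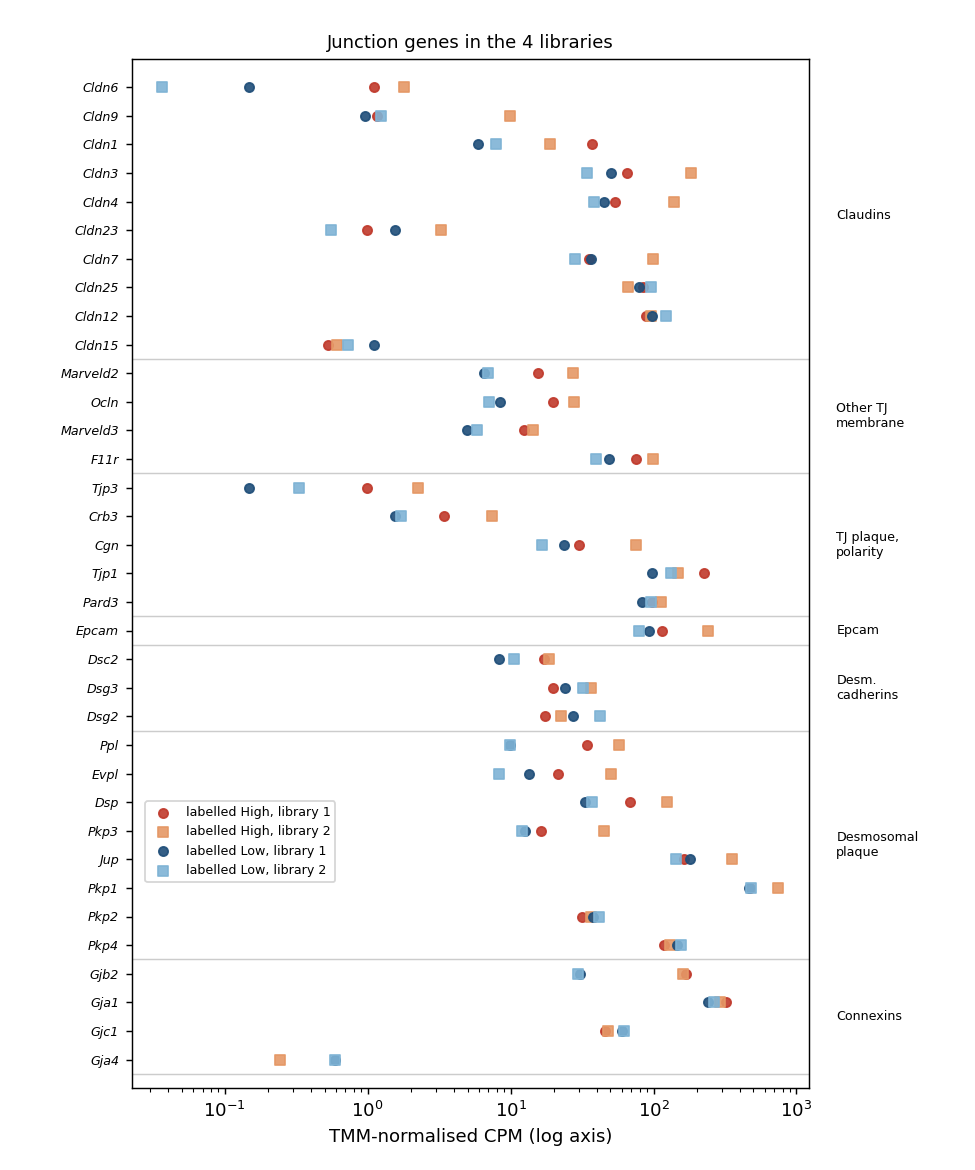
Level of 35 of the 38 tested junction genes in the 4 libraries, in TMM-normalised CPM on a log axis, grouped by role (TJ, tight junction). Circles are library 1 and squares library 2 of each group, and a library at 0 (Gja4 in library 1 labelled High) is not drawn. The 4 other tight junction membrane genes show both libraries labelled High to the right of both labelled Low.

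The claudins with the highest mean level per length over the 4 libraries were Cldn3, Cldn7 and Cldn4, barrier-forming claudins of many epithelia. All lay highest in library 2 labelled High, which enters that mean. By the mean of the libraries labelled Low alone, a gene listed as Cldn25 was highest. Cldn3 was at 64.9 and 184 CPM in the libraries labelled High, against 50.3 and 34.3 CPM in those labelled Low. Its log2 fold change was 1.56 ± 0.55 (SE), without passing edgeR's test (adjusted p = 0.251), and it was called with DESeq2 (0.0224). Over 14 alternatives the log2 fold change ranged from 0.62 (without library 2 labelled High) to 2.13 (without library 1 labelled High). Cldn4, which was chosen after its values were seen because it neighbours Cldn3, was at 53.5 and 138 CPM in the libraries labelled High and at 45.3 and 38.4 CPM in those labelled Low. Cldn3 shares exon bases with Wbscr25 on the opposite strand. Both claudins had library 1 labelled High close above the pair labelled Low and library 2 far above it. Cldn7 was at 35.6 and 99.1 CPM in the libraries labelled High, against 36.4 and 28.2 CPM in those labelled Low, so that its groups overlapped (log2 fold change 1.06 ± 0.51, SE, adjusted p = 0.358 in edgeR).

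Cldn1 differed in the other way between the clones. This claudin, a main component of the epidermal barrier, was at 36.9 and 18.9 CPM in the libraries labelled High and at 5.89 and 7.96 CPM in those labelled Low. The log2 fold change was 2.01 ± 0.41 (SE), or 4.01-fold, at an adjusted p of 0.0523 in edgeR, just short of the threshold. Cldn1 passed with DESeq2 but not with limma-voom, and its log2 fold change ranged from 1.44 to 2.39 over 14 alternatives. Library 1 labelled High was thus the higher for Cldn1 and the lower for Cldn3, Cldn4 and Cldn7.

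Cldn6 and Cldn9, neighbouring genes on chromosome 17 that are 0.137 kb apart (GENCODE M21, mm10), stood at low levels. Cldn6, an embryonic claudin, had 19 and 44 fragments in the libraries labelled High, against 2 and 1 in those labelled Low. The ratio of fragments was 20.6 (95% exact interval 6.74 to 103, counting error only), and edgeR gave an adjusted p of 0.0985. Cldn6 passed the filter only through the libraries labelled High, so these values are a description and not support for a direction. Cldn9, a claudin of the inner ear, was at 1.17 and 9.83 CPM in the libraries labelled High and at 0.957 and 1.25 CPM in those labelled Low, so that only library 2 labelled High stood apart. Its log2 fold change of 2.31 ± 1.01 (SE) had an adjusted p of 0.304 in edgeR, and 0.06 was the log2 fold change without that library. Cldn6 and Cldn9 are closely related in sequence, and how fragments were shared between them is not known.

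None of the remaining tested claudins passed the test. Cldn12 was at 88.9 and 95.4 CPM in the libraries labelled High, against 98.3 and 122 CPM in those labelled Low. A gene listed as Cldn25 was at 84.02 and 65.8 CPM in the libraries labelled High and at 79.5 and 96.3 CPM in those labelled Low. In RefSeq that symbol is an older name of both Cldnd1 and a claudin pseudogene, so which of them was counted cannot be told. Cldn23 was at 0.995 and 3.26 CPM in the libraries labelled High, against 1.55 and 0.550 CPM in those labelled Low (log2 fold change 1.07 ± 0.87, SE, edgeR adjusted p = 0.565). Cldn15 was at 0.527 and 0.612 CPM in the libraries labelled High and at 1.10 and 0.734 CPM in those labelled Low. Of the other 15 claudins, Cldn8, Cldn13, Cldn14, Cldn17, Cldn24 and Cldn26 had no fragments, and 9 had some but did not pass the filter. Among the latter, Cldn5, the claudin of endothelium, had 1 fragment in all. In sum, edgeR called 0 of 10 tested claudins, against 4 higher and 0 lower at an unadjusted p under 0.05, 2 with DESeq2 (Cldn1 and Cldn3) and 0 with limma-voom. The 4 include Cldn6, which passed the filter through the libraries labelled High alone.

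The make-up of claudin RNA differed between the clones. Summed FPKM (fragments relative to transcript length and library total, so that genes can be compared) over the 25 claudins was 212 and 428 in the libraries labelled High, against 186 and 172 in those labelled Low. Cldn3 gave 28.4% and 39.9% of that sum in the libraries labelled High and 25.3% and 18.5% in those labelled Low. Cldn12 gave 11.9% and 6.28% in the libraries labelled High, against 15.0% and 20.4% in those labelled Low. The gene listed as Cldn25 gave 20.1% and 7.77% in the libraries labelled High, against 21.8% and 28.5% in those labelled Low. Cldn1 gave 5.64% and 1.43% in the libraries labelled High and 1.03% and 1.505% in those labelled Low. The sum in library 1 labelled High was thus much nearer to those labelled Low than to library 2.

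**Figure D2:**
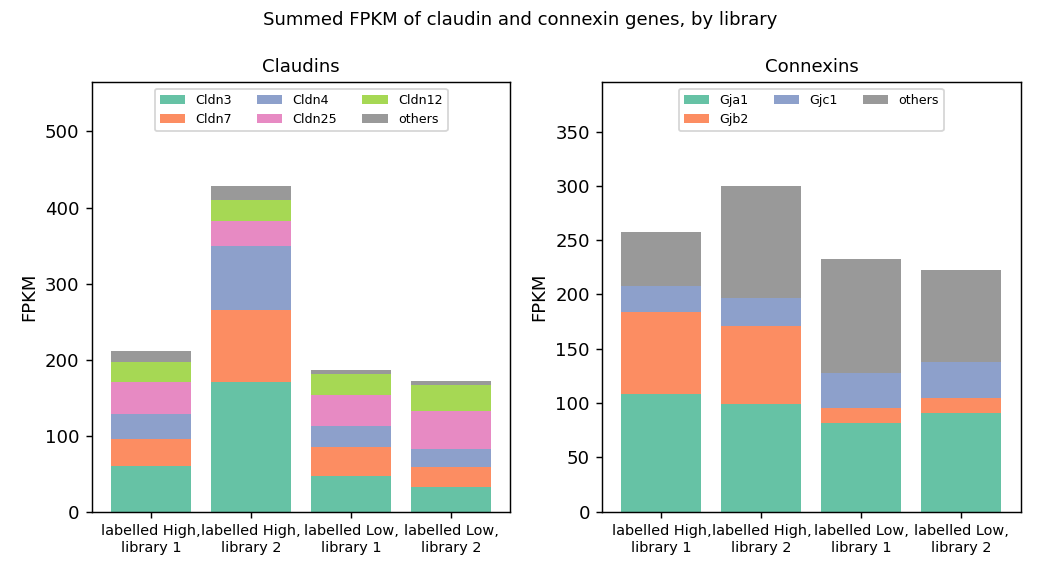
Summed FPKM of the claudin genes (left) and the connexin genes (right) in each library, with the 5 claudins of highest mean FPKM and 3 abundant connexins in colour and the rest in grey. Claudin FPKM sums to 428 in library 2 labelled High and to between 172 and 212 in the other libraries, while the Gjb2 share of connexin FPKM is 29.2% and 23.9% in the libraries labelled High and 5.94% and 5.99% in those labelled Low.

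Promoter windows of the claudin pair on chromosome 5 are shown because Cldn3 and Cldn4 lie 39.3 kb apart and had like values in each library. Each window runs from 250 bases before to 50 bases after the start given by RefSeq (GRCm38.p6, the assembly of mm10) and is printed 5′ to 3′ on the gene's own strand. Capitals mark CAGGTG, searched on both strands (as CACCTG on the other), the letters of the E-box bound by Snail and ZEB repressors. The Cldn3 window is chr5:134985964-134986263 on the plus strand, with 1 match, and the Cldn4 window is chr5:134946885-134947184 on the minus strand, with 2 matches.
Cldn3: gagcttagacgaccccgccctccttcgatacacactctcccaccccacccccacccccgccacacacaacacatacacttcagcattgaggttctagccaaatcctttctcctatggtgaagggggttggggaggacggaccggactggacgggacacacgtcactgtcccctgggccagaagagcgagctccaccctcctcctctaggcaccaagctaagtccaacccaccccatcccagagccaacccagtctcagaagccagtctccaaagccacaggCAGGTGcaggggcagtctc
Cldn4: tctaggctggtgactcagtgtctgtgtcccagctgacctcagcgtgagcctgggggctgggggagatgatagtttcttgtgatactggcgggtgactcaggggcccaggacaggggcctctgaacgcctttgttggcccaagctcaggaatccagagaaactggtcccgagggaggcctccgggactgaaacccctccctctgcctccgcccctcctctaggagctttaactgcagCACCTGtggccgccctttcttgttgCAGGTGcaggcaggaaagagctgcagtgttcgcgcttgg
In Cldn3 the match begins 31 bases after the start, and in Cldn4 the matches begin 14 bases before and 11 bases after it. RefSeq windows were matched for 42 of the 69 junction genes, and 18 of them (42.9%) held the motif, against 22.6% of 27025 genes. Among tested genes with a window, 14 of 22 junction genes (63.6%) held it, against 20.8% of 9578; a gene with several starts counts once if any of its windows does. A GC box (GGGCGG) was in 20 of those 22, against 69.8% of the 9578 genes, and an AP-1 site (TGANTCA) in 4 of 22, against 6.54%. These are matches of letters, and nothing on binding was measured.

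All 4 other membrane proteins of tight junctions lay higher in both libraries labelled High than in either labelled Low, at about 2- to 3-fold. Occludin (Ocln), a MARVEL protein of the junction strand, was at 19.9 and 27.8 CPM in the libraries labelled High, against 8.39 and 7.08 CPM in those labelled Low. Its log2 fold change was 1.63 ± 0.33 (SE), with an adjusted p of 0.0525 in edgeR, and ranged from 1.30 to 1.85 over 14 alternatives. Marveld2 (tricellulin), which seals the points where 3 cells meet, was at 15.5 and 27.2 CPM in the libraries labelled High and at 6.48 and 6.89 CPM in those labelled Low (log2 fold change 1.67 ± 0.38, SE, edgeR adjusted p = 0.0716). Marveld3, the third MARVEL gene and the only one of them outside the naming rule, was at 12.4 and 14.3 CPM in the libraries labelled High, against 4.93 and 5.87 CPM in those labelled Low. F11r, the adhesion molecule JAM-A, was the highest of the 4 per length, at 37.9 ± 7.24 FPKM in the libraries labelled High and 19.2 ± 2.79 FPKM in those labelled Low (SD, n = 2 each). In CPM it was at 75.9 and 99.5 in the libraries labelled High, against 48.7 and 39.6 in those labelled Low (log2 fold change 0.99 ± 0.25, SE, edgeR adjusted p = 0.0935). None of the 4 had its libraries labelled High more than 1.76 times apart. Here edgeR called 0 of 4, with 4 higher and 0 lower at an unadjusted p under 0.05, 4 with DESeq2 and 0 with limma-voom.

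Ocln and Marveld2 are neighbours on chromosome 13, 43.2 kb apart, and their windows are printed in the same way because both were near 3-fold higher in the libraries labelled High. The Ocln window is chr13:100552669-100552968 and the Marveld2 window chr13:100616922-100617221, both on the minus strand. Each is for the first of the gene's RefSeq starts.
Ocln: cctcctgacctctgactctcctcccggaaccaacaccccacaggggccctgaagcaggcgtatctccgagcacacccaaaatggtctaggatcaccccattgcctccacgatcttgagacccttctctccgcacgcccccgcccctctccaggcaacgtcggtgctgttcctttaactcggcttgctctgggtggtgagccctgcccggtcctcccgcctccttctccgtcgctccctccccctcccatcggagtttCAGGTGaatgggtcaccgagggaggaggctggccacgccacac
Marveld2: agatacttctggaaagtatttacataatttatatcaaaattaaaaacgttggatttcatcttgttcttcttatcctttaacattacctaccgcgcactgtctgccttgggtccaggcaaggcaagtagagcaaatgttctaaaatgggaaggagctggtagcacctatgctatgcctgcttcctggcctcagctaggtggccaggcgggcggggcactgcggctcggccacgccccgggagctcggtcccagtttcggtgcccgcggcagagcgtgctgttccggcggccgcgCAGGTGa
Each holds CAGGTG once, beginning 7 bases after the start in Ocln and 43 bases after it in Marveld2. The window of Cldn1, likewise higher in both libraries labelled High, was searched too. It is not printed here and held no match of the motif.

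The plaque and polarity genes lay higher in the libraries labelled High as well, none past the threshold. Tjp1 encodes ZO-1, a scaffold on which claudins assemble. It was at 225 and 149 CPM in the libraries labelled High, against 97.3 and 133 CPM in those labelled Low (log2 fold change 0.70 ± 0.29, SE, edgeR adjusted p = 0.257). Like Cldn1, Tjp1 was higher in library 1 labelled High than in library 2. Its paralog Tjp3 (ZO-3) was scarce, with 17 and 55 fragments in the libraries labelled High, against 2 and 9 in those labelled Low (log2 fold change 2.67 ± 0.90, SE, adjusted p = 0.184). Tjp3 passed the filter only through the libraries labelled High, so its values are a description. Its exons share bases with Apba3 on the opposite strand, and the strand setting of the counting is not given in the sources used here.

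Cingulin (Cgn), which links the plaque to the cytoskeleton and is named after its values were seen, was at 29.98 and 75.5 CPM in the libraries labelled High and at 23.6 and 16.6 CPM in those labelled Low. Crb3, the epithelial Crumbs protein of the apical polarity complex, was at 3.40 and 7.43 CPM in the libraries labelled High, against 1.55 and 1.72 CPM in those labelled Low. Its log2 fold change was 1.72 ± 0.60 (SE, edgeR adjusted p = 0.193), and its exons share bases with Dennd1c on the opposite strand. Pard3, a polarity scaffold, differed least, at 98.4 and 113 CPM in the libraries labelled High and 83.4 and 96.7 CPM in those labelled Low. Of these 6 genes edgeR called 0, with 5 higher and 0 lower at an unadjusted p under 0.05. Over all tested genes 9.93% were higher and 8.18% lower at that unadjusted p. The 5 include Tjp3, which passed the filter through the libraries labelled High alone. DESeq2 called 1 of the 6 genes (Cgn) and limma-voom 0.

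Epcam, an epithelial adhesion molecule that binds and stabilises claudins, was at 114 and 242 CPM in the libraries labelled High, against 92.9 and 78.8 CPM in those labelled Low. Both libraries labelled High were above both labelled Low, and library 2 was 2.11 times library 1. EdgeR gave a log2 fold change of 1.05 ± 0.37 (SE) and an adjusted p of 0.216, and it was called only without library 1 labelled High (3.69e-06, range over 14 alternatives 3.69e-06 to 0.881).

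**Figure D3:**
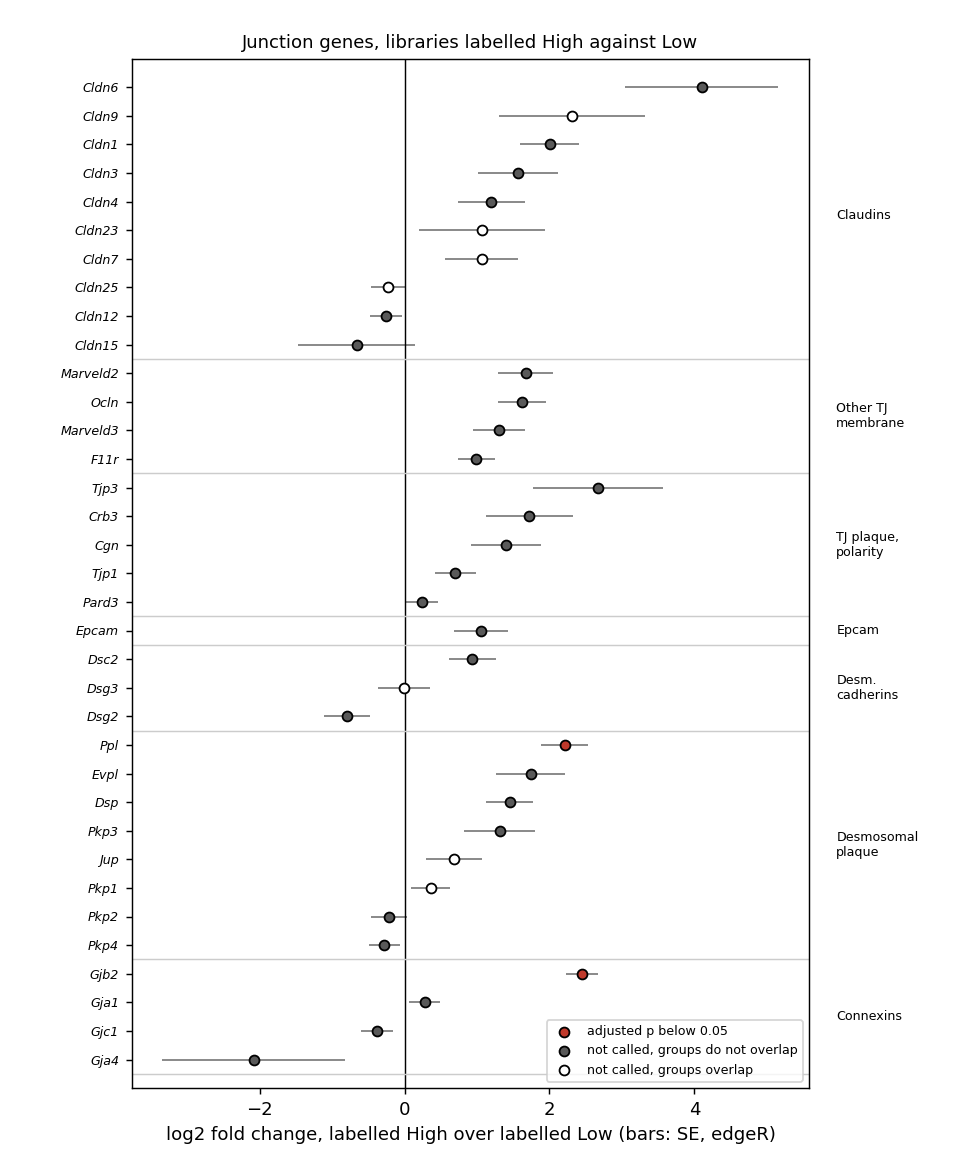
Log2 fold change of 35 of the 38 tested junction genes, libraries labelled High over those labelled Low, with bars of 1 SE from edgeR, grouped by role. Red points passed the adjusted threshold (Gjb2 and Ppl), grey points did not pass but had groups that did not overlap, and white points had overlapping groups; 26 of the 35 lie above 0.

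Of the desmosome genes, only Ppl passed the test. Periplakin, Ppl (chr16:5086291-5132421, minus strand, mm10), links desmosomes and the cornified envelope to intermediate filaments and rose in the libraries labelled High. It was at 34.2 and 57.5 CPM there, against 9.87 and 9.98 CPM in the libraries labelled Low. Both libraries labelled High were more than 3 times either labelled Low, while the pair labelled Low differed by a factor of 1.01. The log2 fold change was 2.21 ± 0.33 (SE), or 4.62-fold, with an adjusted p of 0.0199 in edgeR. Ppl was not called with limma on log2(FPKM + 1) (adjusted p = 0.0644) or on log2(FPKM + 0.1) (0.0587). Nor was it called without library 1 or without library 2 labelled Low. Its log2 fold change ranged from 1.65 to 2.54 over 14 alternatives.

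Envoplakin (Evpl), which pairs with periplakin, was at 21.6 and 50.4 CPM in the libraries labelled High, against 13.4 and 8.29 CPM in those labelled Low (log2 fold change 1.74 ± 0.48, SE, edgeR adjusted p = 0.133). Desmoplakin (Dsp), the third plakin of this list and named after its values were seen, was at 67.9 and 125 CPM in the libraries labelled High and at 33.3 and 37.3 CPM in those labelled Low, without passing in edgeR (adjusted p = 0.0714). For all of Ppl, Evpl and Dsp both libraries labelled High stood above both labelled Low, and library 2 was the higher of them.

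The plakophilins, armadillo proteins that gather desmosomal cadherins and plakins, differed among themselves. Pkp1 had the highest FPKM of the plaque genes, at 140 ± 44.9 FPKM in the libraries labelled High and 110 ± 2.30 FPKM in those labelled Low (SD, n = 2 each). In CPM it was at 473 and 748 in the libraries labelled High, against 468 and 483 in those labelled Low, overlapping (log2 fold change 0.36 ± 0.27, SE, edgeR adjusted p = 0.533). Pkp3 was at 16.2 and 45.2 CPM in the libraries labelled High and at 12.7 and 12.1 CPM in those labelled Low (log2 fold change 1.31 ± 0.49, SE, adjusted p = 0.241). Pkp2 and Pkp4 were slightly lower in both libraries labelled High, Pkp4 being at 119 and 130 CPM in them and at 146 and 156 CPM in those labelled Low. Plakoglobin (Jup), shared by desmosomes and adherens junctions, was at 164 and 353 CPM in the libraries labelled High, against 180 and 143 CPM in those labelled Low, which overlapped (log2 fold change 0.68 ± 0.38, SE, adjusted p = 0.421). Of the 8 plaque genes edgeR called 1 higher and 0 lower, and 4 were higher and 0 lower at an unadjusted p under 0.05.

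Of the 9 desmosomal cadherins 3 were tested and none was called, Dsg2, Dsg3 and Dsc2, and per length they were far scarcer than the plaque genes. Summed FPKM of the family was 12.1 and 17.6 in the libraries labelled High and 12.99 and 18.3 in those labelled Low, while that of the plaque genes was 203 and 335 in the libraries labelled High and 205 and 203 in those labelled Low. Dsg3, the desmoglein of basal layers, was at 19.7 and 36.3 CPM in the libraries labelled High, against 24.2 and 32.2 CPM in those labelled Low (log2 fold change -0.01 ± 0.35, SE, edgeR adjusted p = 0.992). Dsg2, the desmoglein of simple epithelia, was at 17.5 and 22.5 CPM in the libraries labelled High and at 27.2 and 42.4 CPM in those labelled Low (log2 fold change -0.80 ± 0.32, SE, adjusted p = 0.244). Dsc2, named after its values were seen, lay higher instead, at 17.2 and 18.7 CPM in the libraries labelled High, against 8.25 and 10.5 CPM in those labelled Low. Its share of the cadherin FPKM was 33.2% and 24.8% in the libraries labelled High and 14.9% and 13.5% in those labelled Low, whereas that of Dsg2 was 25.7% and 22.8% in the libraries labelled High and 37.5% and 41.6% in those labelled Low. At an unadjusted p under 0.05, 1 of the 3 was higher and 1 lower, and DESeq2 and limma-voom called 0. Dsc3 and Dsg4 had no fragments, and Dsc1, Dsg1a, Dsg1b and Dsg1c, of which the last 3 are close copies, had at most 4 fragments in a library.

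Among connexins, Gjb2 rose 5.46-fold and showed a smaller difference between the clones than Ppl. Gjb2 (chr14:57098600-57104702, minus strand, mm10) encodes connexin 26, a gap junction protein of mammary luminal cells and skin. It was at 169 and 160 CPM in the libraries labelled High, against 30.8 and 29.6 CPM in those labelled Low. The ratio of library 2 to library 1 was 0.948 within the group labelled High and 0.960 within that labelled Low. The log2 fold change was 2.45 ± 0.22 (SE), with an adjusted p of 0.00323 in edgeR. It was called in 12 of 14 alternatives (adjusted p from 8.39e-21 to 0.364), with log2 fold changes from 2.35 to 2.48. The exceptions were the fits without library 1 labelled Low (0.363) and without library 2 labelled Low (0.364), in which no gene of the whole table was called. Its promoter window is chr14:57104653-57104952 on the minus strand, shown as that of the gene with the lowest adjusted p, with the E-box again in capitals.
Gjb2: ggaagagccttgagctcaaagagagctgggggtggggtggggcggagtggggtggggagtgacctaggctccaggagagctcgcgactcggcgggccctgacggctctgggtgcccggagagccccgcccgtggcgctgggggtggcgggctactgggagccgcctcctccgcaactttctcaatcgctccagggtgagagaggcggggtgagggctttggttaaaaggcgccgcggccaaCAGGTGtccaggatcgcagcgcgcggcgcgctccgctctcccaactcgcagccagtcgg
The motif begins 9 bases before the RefSeq start.

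Gja1 and Gjc1 did not pass the test. Gja1 (connexin 43), the widespread connexin and that of myoepithelium, had the highest FPKM, at 104 ± 6.32 FPKM in the libraries labelled High and 86.3 ± 6.69 FPKM in those labelled Low (SD, n = 2 each). In CPM it was at 320 and 293 in the libraries labelled High, against 239 and 267 in those labelled Low (log2 fold change 0.28 ± 0.22, SE, edgeR adjusted p = 0.550). Gjc1 (connexin 45) was lower in both libraries labelled High, at 45.8 and 47.9 CPM in the libraries labelled High and 60.2 and 61.7 CPM in those labelled Low. Gja4 (connexin 37, of vessels) had 0 and 6 fragments in the libraries labelled High and 8 and 16 in those labelled Low (log2 fold change -2.08 ± 1.26, SE, edgeR adjusted p = 0.439). It passed the filter only through the libraries labelled Low, so its values are a description. Per length, Gjb2 took 29.2% and 23.9% of connexin FPKM in the libraries labelled High, against 5.94% and 5.99% in those labelled Low. Gja1 took 42.0% and 33.2% in the libraries labelled High and 35.0% and 41.0% in those labelled Low. Of 6 tested connexins edgeR called 1 higher and 0 lower, with 2 higher and 1 lower at an unadjusted p under 0.05. Gjb1 (connexin 32, of liver and nerve) was among 3 connexins with no fragments.

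The clones differed widely over these genes, mostly in a single direction. Among 37 junction genes with fragments in every library, 32 (86.5%) were higher in library 2 labelled High than in library 1, and 13 (35.1%) more than 2 times higher. The same held for 50.8% and 7.33% of 12695 tested genes with fragments in every library. None of the 37 was more than 2 times higher in library 1, against 1303 of the 12695, and the median ratio of library 2 to library 1 was 1.61, against 1.01 over all. For the libraries labelled Low the median ratio of library 2 to library 1 was 1.02 over the junction genes, and 3 of them were more than 2 times apart. The widest gaps were in Cldn9 (8.40 times), Cldn23 (3.28), Cldn3 (2.84), Pkp3 (2.79) and Cldn7 (2.78). As a sum the 14 epithelial markers, at 2600 and 6439 CPM in libraries 1 and 2 labelled High, moved with these genes. Of the markers, Ehf ran the other way, at 45.7 and 6.45 CPM. The fibroblast and pericyte markers, at 1228 and 474.5 CPM, were lower in library 2 as a sum but not gene by gene: Col1a2 was at 14.6 and 304.5 CPM in libraries 1 and 2 labelled High, and Col3a1 at 170 and 2.04 CPM. Their part in the gap between the clones was not tested, and with 1 library per clone the gap has no replicate check.

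**Figure D4:**
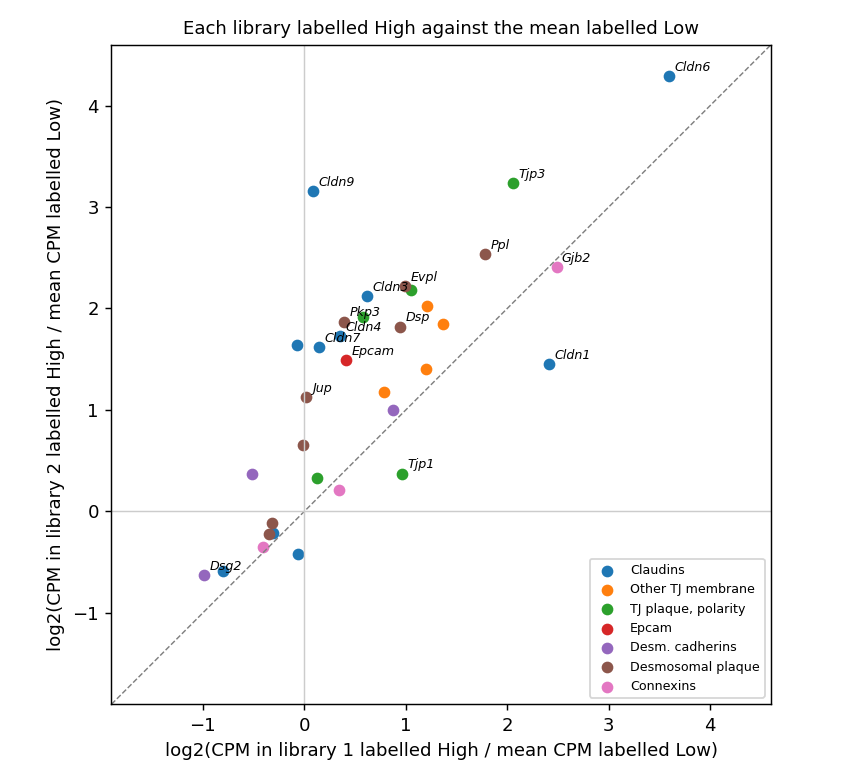
Log2 ratio of each junction gene to the mean CPM of the libraries labelled Low, in library 1 (x axis) and library 2 (y axis) labelled High, coloured by role, for 34 genes. The dashed line marks equal values; 29 of the 34 lie above it, Gjb2 lies close to it, and Cldn1 and Tjp1 lie below it.

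Other genes of epithelial junctions, outside the 69, were counted in the same way. Of the 50 found, 45 were tested, and edgeR called 1 higher and 0 lower, where 1.14% and 1.33% of all genes were called (12 higher and 3 lower at an unadjusted p under 0.05, 9 higher and 3 lower with DESeq2, 0 with limma-voom). The libraries labelled High both lay above both labelled Low for 18 of the 45 and both below for 7, while 20 overlapped. Over all tested genes the shares were 25.9% above and 25.2% below. The median log2 fold change of the 45 was 0.35. E-cadherin (Cdh1), the adherens junction cadherin, was at 264 and 387 CPM in the libraries labelled High and at 131 and 146 CPM in those labelled Low (edgeR adjusted p = 0.0578). Prkcz, an atypical kinase of the polarity complex, was at 12.998 and 20.6 CPM in the libraries labelled High, against 4.79 and 5.79 CPM in those labelled Low (adjusted p = 0.0760). The nectin Pvrl3 was at 27.4 and 14.7 CPM in the libraries labelled High and at 51.5 and 67.6 CPM in those labelled Low (adjusted p = 0.0788). Arhgef2, a RhoA activator held at tight junctions, was at 105 and 116 CPM in the libraries labelled High, against 208 and 195 CPM in those labelled Low (adjusted p = 0.0886).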

How the data were processed

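The table deposited by the authors gives, per gene and library, estimated counts of fragments, a scaled signal and FPKM, per the file headers. Reads were handled upstream with Cuffdiff 2.2.1, TopHat2 2.0.13 and cutadapt 1.5 on build mm10, per the submitters' processing notes; the sources used here give neither annotation nor strand setting. The deposited signal is the fragments times 1 factor per library, and the authors' FPKM is per kilobase after that scaling, per the file headers. Of the estimated counts 99.18% were whole within 1e-06, and all were rounded. From 500 ng of RNA per library a strand-marking kit was used, per the labels' protocols. There were 0 columns of per-sample values without a sample. The table gives each library's group; the numbers 1 and 2 only name libraries, and which library labelled High is which clone is not stated.

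Tests were two-sided edgeR quasi-likelihood fits across all genes (edgeR 4.0.16, limma 3.58.1, DESeq2 1.42.0, R 4.3.3) with TMM, robust estimation, edgeR's filter (smallest count 10) and Benjamini-Hochberg adjustment at 0.05. The 11 genes with a failed status were left out, none of them a junction gene, and 12977 were tested. Residual degrees of freedom numbered 2, and the common biological variation (coefficient) was 32.2% (42.8% within the pair labelled High, 17.3% within the pair labelled Low). SE is the fold change over the root of the F statistic. With 2 libraries against 2, the smallest p of an exact permutation test is 0.333, and none was run. Nothing in the labels tells whether the parental duplicates were grown apart. The p-values therefore reflect just the variation among these samples, possibly technical. A count of 3 fragments is 0.107 to 0.216 CPM by library. The fits were also run on simulated data with the same spread in both groups, unlike the pairs here. No outcome is given, so this is no check of the calls above. Genes named with full statistics are those called, the 2 of highest FPKM in each role, the 10 of largest fold change and the 5 of largest ratio between the libraries labelled High; of the other junction genes, those called and the 5 of smallest p. The members, lists and rules were chosen with earlier results of these data known. Some genes count in the totals but are not reported here singly or drawn.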

Additional observations from a re-analysis of the deposited data

How the results depend on the processing

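The junction gene counts moved more with the setting than the fold changes did. Counts of junction genes called higher were 8 without the low-count filter, 4 with a smallest count of 30, 11 with DESeq2, 1 on log2(FPKM + 1), 1 on log2(FPKM + 0.1) and 0 to 25 with a library left out; those called lower were 0, or 0 to 2 with a library left out. Over all genes, higher and lower calls were 441 and 377 without the filter, 635 and 527 with DESeq2 and 0 to 1407 and 0 to 1073 with a library left out, with 72 higher under limma-voom and 82 higher on log2(FPKM + 1). Of the other junction genes, 5 were called higher and 2 lower without the filter, 2 higher with a smallest count of 30, 9 higher and 3 lower with DESeq2, 0 with limma-voom, 0 on log2(FPKM + 1), and 0 to 15 higher and 0 to 6 lower with a library left out. The cause was not tested. Junction genes with groups that did not overlap numbered 24 to 30 (higher) and 7 to 10 (lower) with a library left out, where fewer libraries must differ. These were out of 39 to 41 tested junction genes. The share over all genes was not computed for these fits, so the counts are a description only. The median log2 fold change was 0.38 to 1.39 with a library left out. Log2 fold changes changed sign in 4 values of 3 genes that edgeR did not call: Dsg3 (0.36 without library 1 labelled High and 0.21 without library 2 labelled Low, range -0.53 to 0.36 with a library left out), Cldn23 (-0.0035 without library 2 labelled High, range -0.0035 to 1.95) and Pkp1 (-0.0155 without that library, range -0.0155 to 0.66). The replicate numbers do not pair the samples (correlation of deviations of same-numbered libraries -0.139). With the replicate block, 4 junction genes were called higher, and 1 other junction gene lower (all genes, 220 higher and 244 lower). With the numbers crossed in the block, an alternative chosen after seeing the data, 1 was called higher (all genes, 38 higher and 56 lower). Where a group was left with 1 library, that library is assumed to vary like the other group. Genes that reached about 10 fragments, scaled to library depth, in fewer than 2 libraries did not pass the filter and were not tested.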

Other observations

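Several junction genes that did not pass the filter on low counts still had uneven counts. Gjb6 (connexin 30), 18.6 kb from Gjb2, had 2 and 54 fragments in the libraries labelled High, against 6 and 0 in those labelled Low, so that nearly all came from library 2 labelled High. Gja3 (connexin 46), on the other side of Gjb2, had 7 and 5 fragments in the libraries labelled High and none in those labelled Low. With the group at 0 set to 3 fragments, the ratio was 3.93. That ratio leaves out the counting error of the fragments seen, so it is no lower bound. Gja6 had none in the libraries labelled High, against 2 and 7 in those labelled Low, a ratio of 3.05 of Low over High formed in the same way. Cldn18, a claudin of stomach and lung, had 0 and 1 fragments in the libraries labelled High, against 2 and 21 in those labelled Low, a ratio of 23.4 of Low over High (95% exact interval 3.80 to 965, counting error only). Most of the Cldn18 fragments came from library 2 labelled Low. These counts were picked after their values were seen and carry no test between groups.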
